A study of Homo sapiens with 6 samples.

Results

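KLF10 and 9 other genes that carry, restrain or respond to transforming growth factor beta (TGF-beta) signaling were followed through an HNRNPU knockdown in K562 cells. K562 is an established cell line grown from a human chronic myelogenous leukemia. KLF10 was chosen because it was more than 2-fold higher in all 3 knockdown RNA preparations. The other 9 genes (KLF11, SMAD7, SKIL, TGIF1, ID1, ID2, LTBP3, TGFB1 and TGFBR1) were chosen for their place in the same pathway. Each of the 10 was found as a locus with a single gene name among 62308 loci, and all 10 were among the 12824 loci that averaged 1 FPKM or more across all 6 libraries. FPKM counts fragments per kilobase of transcript, scaled to library size, so levels of different genes can be set side by side.

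The knockdown cells had been transfected with siRNA against HNRNPU at 300 nM, and the control cells with control oligos. From each condition whole-cell, nuclear and cytosolic RNA was taken, which gives 6 groups of 1 library. No test was run, no difference has a replicate check, and it is not stated whether the 3 preparations came from separate cultures. HNRNPU encodes a nuclear RNA-binding protein that also associates with chromatin, and the title of the series asks about its part in the nuclear localization of long noncoding RNAs.

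TGF-beta is secreted in a latent complex, and once released it binds paired receptor kinases at the cell surface. The type I receptor phosphorylates SMAD transcription factors, which enter the nucleus with SMAD4 and act on target genes. Several of those targets feed back on the pathway: SMAD7 blocks the receptor, SKIL and TGIF1 hold SMAD complexes in a repressed state, and KLF10, first described as a TGF-beta-inducible early gene, represses SMAD7 transcription. ID proteins, targets chiefly of the related BMP branch, lack a DNA-binding region and tie up other helix-loop-helix factors. In blood progenitors TGF-beta is known as a brake on proliferation.

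The targeted gene and the cell type were checked first. The HNRNPU locus, merged with HNRNPU-AS1, stood at 43.0% of the control level in whole-cell RNA, at 39.0% in the nuclear fraction and at 22.1% in the cytosolic fraction. Each of 10 loci holding erythroid markers of K562 cells, such as GATA1, TAL1 and the gamma-globin genes, had at least 1 FPKM in every library, with a summed level of 806 to 1846 FPKM in knockdown and 793 to 2003 FPKM in control libraries. Of 8 markers of other cell types, KRT5 and MS4A1 were at 0 in every library. At least 1 FPKM was reached by 1 to 3 of the 8, depending on the library, and CD3E averaged 1.68 FPKM. The sum of the 8 was 11.1 to 21.0 FPKM in knockdown and 7.44 to 17.0 FPKM in control libraries, most of it COL1A2. In bulk RNA, fewer cells that express a gene and less of its RNA per cell cannot be told apart. A level of 1 FPKM corresponded to about 14.8 to 39.1 fragments per kilobase in the knockdown and 13.4 to 23.1 in the control libraries.

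The upstream sequences of ID1 and ID2 are shown because these related genes were lower after knockdown in different preparations. They are the 250 bases before the transcription start, from RefSeq on GRCh38.p14, whereas the measured loci are on hg19. Capitals mark 3 promoter motifs, searched on both strands: the GC box GGGCGG, the CCAAT box and the TATA-like TATAAA. ID1 lies on the plus strand at chr20:31605039-31605288 and ID2 on the plus strand at chr2:8681806-8682055.
ID1: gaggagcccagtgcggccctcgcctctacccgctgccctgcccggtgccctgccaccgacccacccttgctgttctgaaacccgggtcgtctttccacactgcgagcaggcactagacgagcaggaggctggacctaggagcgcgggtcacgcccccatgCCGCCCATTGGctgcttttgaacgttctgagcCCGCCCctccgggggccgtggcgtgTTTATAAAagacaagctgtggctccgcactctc
ID2: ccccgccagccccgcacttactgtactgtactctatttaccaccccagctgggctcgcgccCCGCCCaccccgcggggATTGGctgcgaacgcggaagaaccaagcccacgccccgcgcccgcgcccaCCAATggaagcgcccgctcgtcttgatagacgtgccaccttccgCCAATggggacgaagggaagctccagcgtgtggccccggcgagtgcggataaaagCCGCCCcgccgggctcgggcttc
Both windows held 2 matches to GGGCGG, a motif found in 42.6% of 35116 RefSeq promoter windows of the same length. CCAAT matched once in ID1 and 3 times in ID2, against 32.0% of windows with any match. TATAAA matched ID1 on both strands at overlapping positions, 31 and 33 bases before the start, and had no match in ID2, against 10.7% of windows. Such matches describe letters and not bound sites. RefSeq windows were at hand for 9 of the 10 genes.

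KLF10, a zinc finger repressor, had the largest ratios of the 10 genes in every preparation. Its locus (chromosome 8, 103661006 to 103668130 on hg19, overlapped by no other locus of the table) had 7.96 FPKM in knockdown and 3.29 FPKM in control whole-cell RNA. Nuclear RNA had 9.51 FPKM in knockdown and 3.76 FPKM in control cells. Cytosolic RNA had 16.2 FPKM in knockdown and 7.03 FPKM in control cells. The lowest knockdown value was 7.96 FPKM (whole-cell) and the highest control value 7.03 FPKM (cytosolic). KLF10 was chosen for being higher in knockdown, so this order follows in part from that choice. It also sets different preparations side by side, and how their libraries were scaled is not given. The knockdown-to-control fold was 2.42 for whole-cell RNA, 2.53 for the nuclear fraction and 2.31 for the cytosolic fraction. On the scale used below, log2(FPKM + 0.1), the ratios were 1.25, 1.32 and 1.19 in that order. Past 2-fold means a ratio of at least 1 in size on that scale, which for low levels is stricter than 2-fold in FPKM.

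Those ratios rest on enough fragments for counting noise to be small. About 471 fragments in knockdown and 240 fragments in control whole-cell RNA came from KLF10, and each ratio was 10.9 to 12.7 times its estimated counting error. The 95% range from counting alone, which covers no difference between cultures, ran from 1.02 to 1.47 in whole-cell and from 1.11 to 1.52 in nuclear RNA. In cytosolic RNA it ran from the 2-fold line itself to 1.39. Among all loci analysed, 1.36% were at least 2-fold higher in whole-cell RNA, 1.04% in the nuclear and 2.62% in the cytosolic fraction, and 0.0702% (9 loci) in all 3 preparations. Lower by that size in all 3 were 0.0624% of loci and none of the 10 genes. KLF10 was chosen on this contrast, so nothing is read from that share or from the size of its ratios beside their counting errors.

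**Figure D1:**
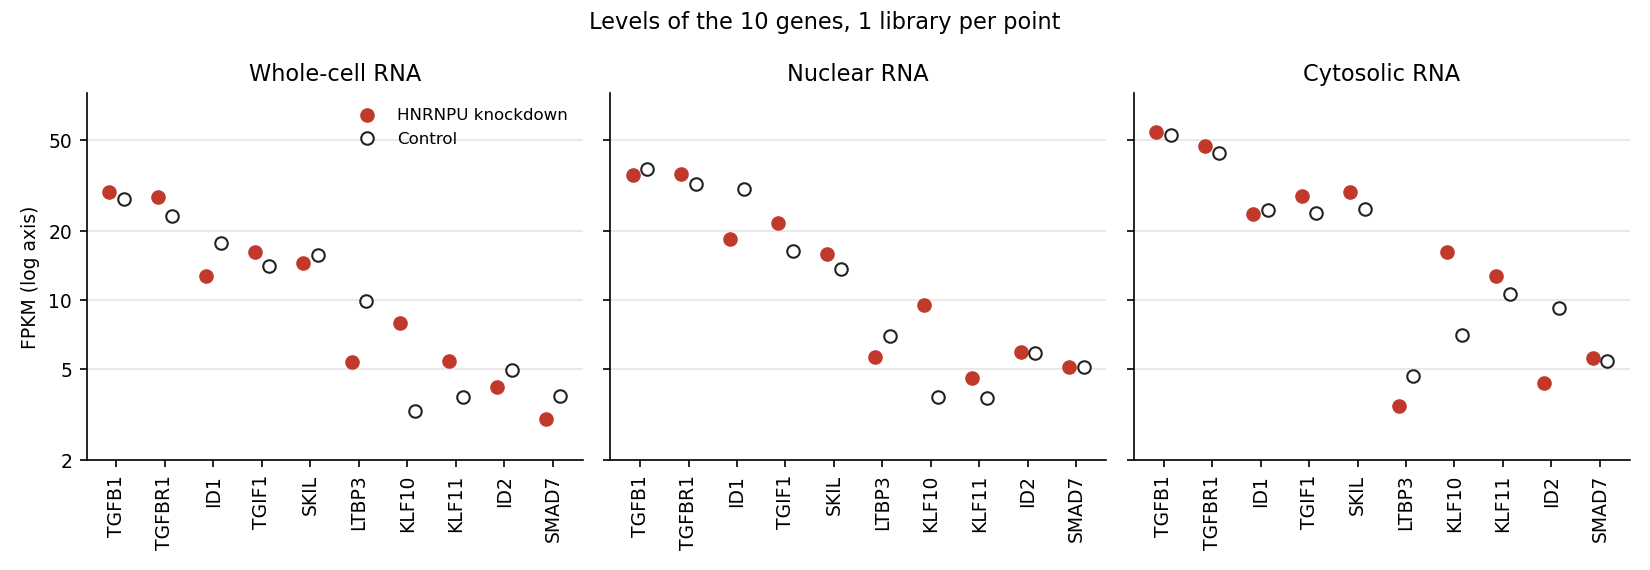
FPKM (log axis) of the 10 genes in whole-cell, nuclear and cytosolic RNA, with filled points for the knockdown and open points for the control library, and 1 library per point. Genes run from the highest to the lowest mean whole-cell level, and KLF10 lies at 7.96, 9.51 and 16.2 FPKM in knockdown against 3.29, 3.76 and 7.03 FPKM in control libraries.

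With a minimum mean of 5 FPKM, TXNIP and KLF10 were the 2 loci at least 2-fold higher in all 3 preparations. TXNIP, which binds and inhibits thioredoxin, had a smallest ratio of 1.32, and that of KLF10 was 1.19. The nearest locus outside was COX20, which helps assemble cytochrome c oxidase (0.97, cytosolic). By distance over the 3 ratios, the loci most like KLF10 included COX20 (0.32), TXNIP (0.36), ARRDC4 (0.56) and ZNF385D-AS1 (0.70). COX20 (chr1:244998623-245008359) shares part of its span with the HNRNPU locus (chr1:245003939-245027844), the target of the knockdown. None of these 4 belongs to the TGF-beta lists below.

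KLF11 (chr2:10182975-10194963), the closest relative of KLF10 and likewise a TGF-beta-inducible repressor, was higher by less. Whole-cell RNA had 5.43 FPKM in knockdown and 3.76 FPKM in control cells. Nuclear RNA of KLF11 had 4.58 FPKM in knockdown and 3.75 FPKM in control cells, and cytosolic RNA 12.7 FPKM in knockdown and 10.6 FPKM in control cells. The higher library was the knockdown one in each preparation, with log2 ratios of 0.52, 0.28 and 0.26, which were 3.54, 2.03 and 2.31 times their counting errors. In knockdown whole-cell RNA KLF10 was the higher of the paralogs, 4.63 counting errors above KLF11. In control whole-cell RNA KLF10 was the lower, with a distance of 1.35 counting errors. KLF10 was chosen for being higher in knockdown, so the different order of the paralogs follows in part from that choice.

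Of the 17 genes of the KLF family, 12 averaged 1 FPKM or more. KLF10, which was chosen for its ratios, was the single one at least 2-fold higher in nuclear and in cytosolic RNA. The share of all loci higher by that size was 1.04% for nuclear, 2.62% for cytosolic and 1.36% for whole-cell RNA. At such shares a short list can hold none, so the counts of this family say little. In whole-cell RNA KLF13, a family member expressed in blood cells, was past 2-fold as well, with 7.80 FPKM in knockdown and 3.51 FPKM in control cells. Its nuclear level lay the other way, with 7.11 FPKM in knockdown and 8.36 FPKM in control cells. Its whole-cell ratio was 1.13, and 0.96 with a pseudocount of 1. The 12 loci had median log2 ratios of 0.15, 0.08 and 0.14 for whole-cell, nuclear and cytosolic RNA, beside 0.06, 0.03 and 0.03 for all loci. These medians include KLF10, which was chosen for its ratios. Without KLF10 and KLF11 they were 0.00479, 0.06 and 0.08. KLF1, the erythroid activator of globin genes, had 12.1 FPKM in knockdown and 12.9 FPKM in control whole-cell RNA (log2 ratios -0.09, -0.25 and -0.30). KLF7 had ratios of -0.90, -0.21 and 0.45, and KLF15 -0.66, -0.34 and 0.16.

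**Figure D2:**
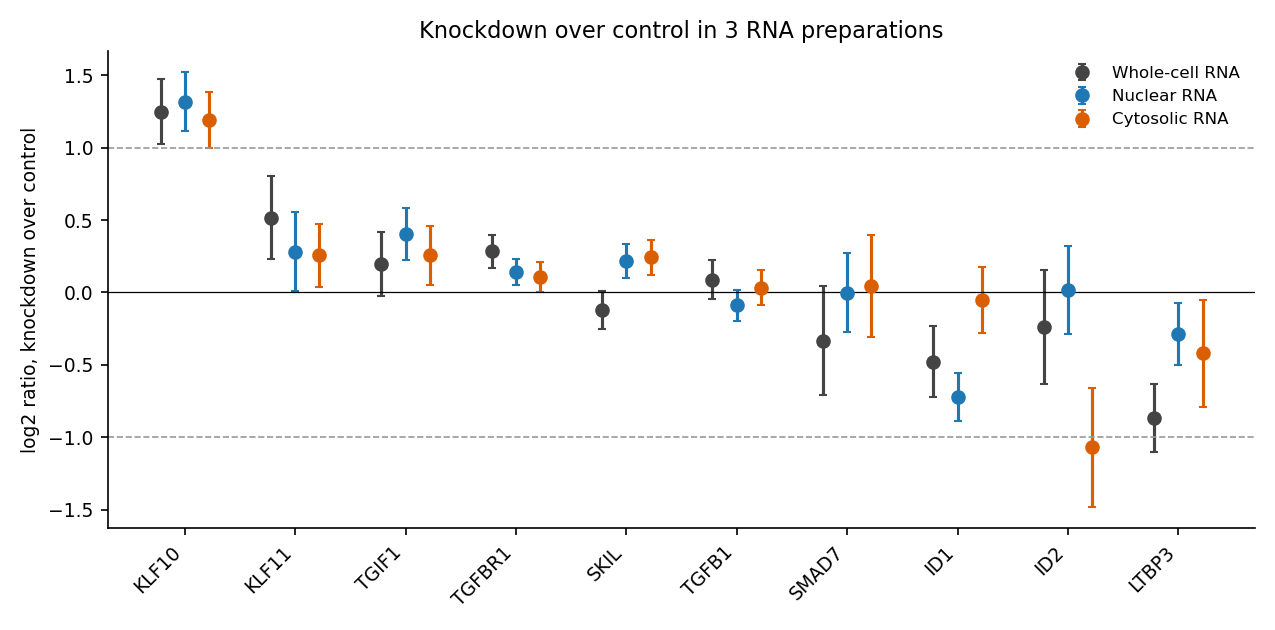
Log2 ratio of knockdown over control FPKM (pseudocount 0.1) for the 10 genes in the 3 preparations, where bars span 1.96 estimated counting errors each way and dashed lines mark 2-fold. KLF10 is past 2-fold in all 3 preparations, for which it was chosen, and ID2 is past it on the lower side in cytosolic RNA (-1.07).

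The feedback inhibitors SMAD7, SKIL and TGIF1 stayed within 2-fold of control in every preparation. SMAD7 (chr18:46446222-46477081) had 3.01 FPKM in knockdown and 3.82 FPKM in control whole-cell RNA. Its nuclear level was 5.10 FPKM in both conditions, and its cytosolic level was 5.60 FPKM in knockdown and 5.43 FPKM in control cells. Each of the 3 SMAD7 ratios (-0.33, -0.00129 and 0.04) was smaller than 1.96 times its counting error, so at this depth no difference in SMAD7 was detectable. The whole-cell range from counting ran from -0.71 to 0.04.

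SKIL (chr3:170075465-170114623), also called SnoN, had 14.5 FPKM in knockdown and 15.8 FPKM in control whole-cell RNA. Nuclear RNA had 15.9 FPKM of it in knockdown and 13.6 FPKM in control cells, and its cytosolic level was 29.6 FPKM in knockdown and 25.0 FPKM in control cells. SKIL was lower in the knockdown whole-cell library and higher in both knockdown fractions (log2 ratios -0.12, 0.22 and 0.24). TGIF1 (chr18:3411605-3458409), a homeodomain corepressor, was higher in each knockdown library. It had 16.2 FPKM in knockdown and 14.1 FPKM in control whole-cell RNA. Nuclear TGIF1 stood at 21.8 FPKM in knockdown and 16.4 FPKM in control cells. Cytosolic TGIF1 stood at 28.6 FPKM in knockdown and 24.0 FPKM in control cells. Its ratios of 0.20, 0.40 and 0.26 were 1.77, 4.38 and 2.46 times their counting errors.

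The wider list of feedback genes and inhibitors showed no locus past 2-fold in any preparation among the 17 measured. Of all loci, 1.04% to 2.62% were at least 2-fold higher and 1.29% to 2.63% lower in a single preparation. At such shares a short list can hold none, so this count and those of the lists below say little. The 17 loci had median log2 ratios of 0.06, -0.00129 and 0.10 in whole-cell, nuclear and cytosolic RNA. STRAP, an adaptor that stabilizes SMAD7 at the receptor, had ratios of 0.34, 0.24 and 0.26. SMURF1, a ubiquitin ligase that SMAD7 brings to the receptor, had 0.30, 0.36 and 0.08. PPP1R15A (GADD34), a phosphatase subunit that also acts on the receptor, had 0.21, 0.14 and 0.25. SMAD6, the inhibitor of the BMP branch, had 6.76 FPKM in knockdown and 9.28 FPKM in control cytosolic RNA, with ratios of 0.01, -0.19 and -0.45.

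ID1 and ID2 lay on the lower side, in different preparations. ID1 (chr20:30193085-30194318 on hg19) had 12.7 FPKM in knockdown and 17.7 FPKM in control whole-cell RNA. In nuclear RNA ID1 had 18.5 FPKM in knockdown and 30.5 FPKM in control cells. The cytosolic libraries held 23.9 FPKM in knockdown and 24.8 FPKM in control cells. The nuclear ratio of ID1 (-0.72) stood at -8.54 counting errors and the whole-cell ratio (-0.48) at -3.85, while the cytosolic one (-0.05) lay inside the range of counting.

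ID2 (chr2:8818974-8824583 on hg19) was near control in the nucleus and lower in the cytosol. Whole-cell RNA had 4.17 FPKM in knockdown and 4.94 FPKM in control cells, and nuclear RNA 5.96 FPKM in knockdown and 5.88 FPKM in control cells. Cytosolic RNA had 4.35 FPKM in knockdown and 9.24 FPKM in control cells, which is the single value past 2-fold on the lower side among the 10 genes (log2 ratio -1.07). Of all loci, 2.63% were at least 2-fold lower in cytosolic RNA, 1.29% in whole-cell RNA and 1.5% in the nucleus. About 72.4 fragments in knockdown and 139 fragments in control cytosolic RNA came from ID2, and the ratio stood at -5.11 counting errors. The 95% range from counting, -1.48 to -0.66, extended to both sides of 2-fold. The ratio was -0.94 with a pseudocount of 1 and -0.93 under quantile normalization, short of 2-fold. The locus AC011747.7 overlaps ID2 and had 0.329 FPKM in knockdown and 0.859 FPKM in control cytosolic RNA. No source used here says whether counting used the strand, so fragments of the overlapping locus and of ID2 cannot be told apart.

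ID3 lay on the lower side in each preparation, with 2.15 FPKM in knockdown and 3.12 FPKM in control whole-cell RNA (log2 ratios -0.52, -0.24 and -0.50). The whole-cell and nuclear ratios of ID3 (-1.86 and -1.26 counting errors) lay inside the range of counting, and the cytosolic one stood at -2.17. ID4 was listed at 0 in all 6 libraries. The 3 measured ID loci had medians of -0.48, -0.24 and -0.50, beside 0.06, 0.03 and 0.03 for all loci. In all 3 preparations, 13.2% of all loci were lower by any size and 24.6% higher. Among the 10 genes, ID1 and LTBP3 were lower in all 3 and KLF10, KLF11, TGIF1 and TGFBR1 higher in all 3.

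**Figure D3:**
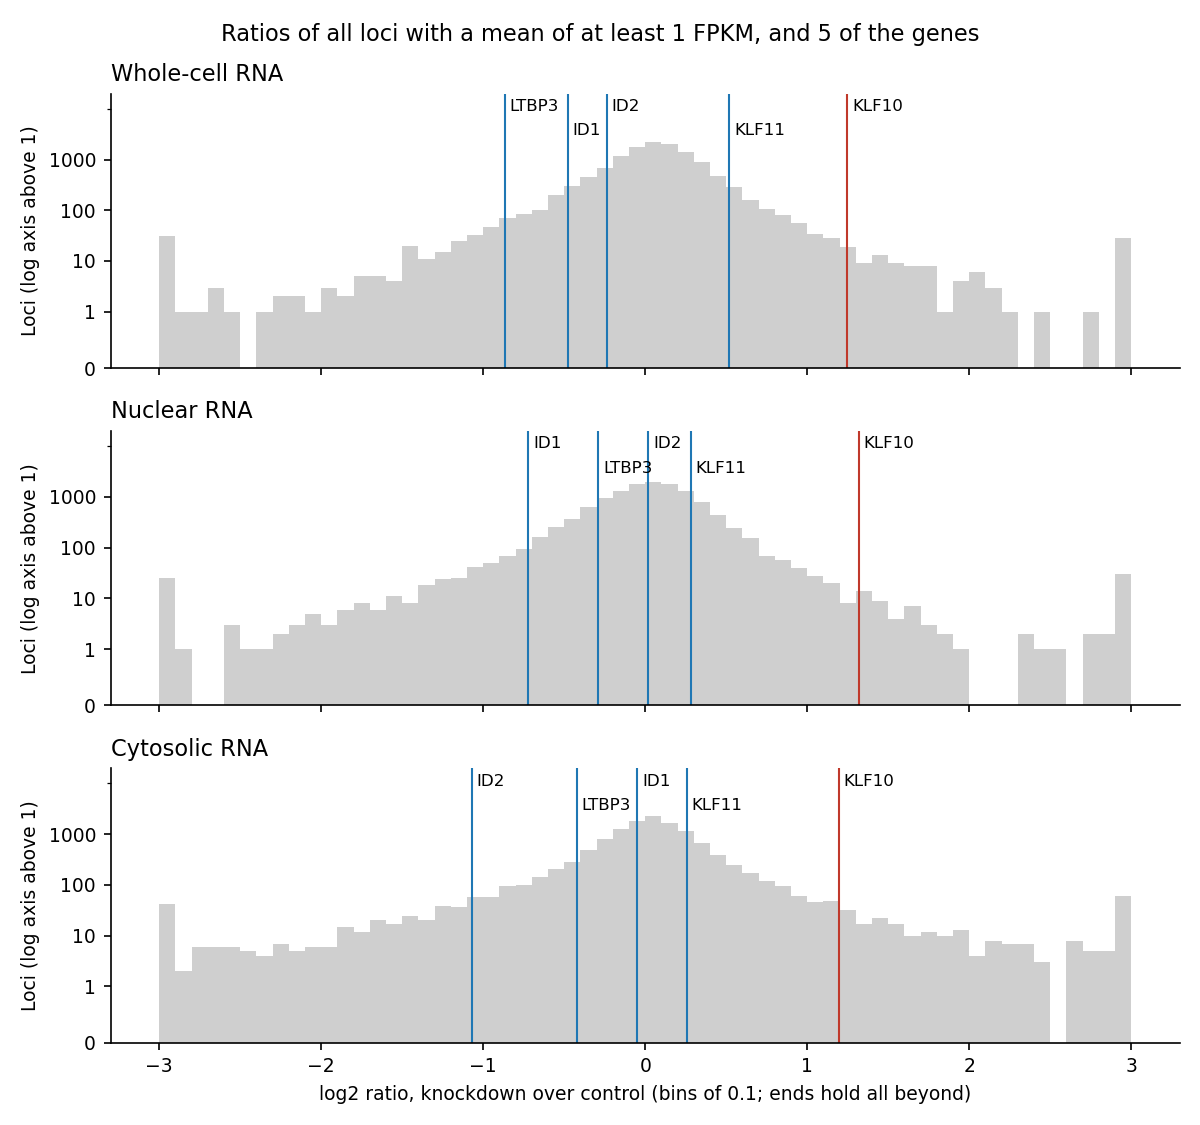
Number of loci (log axis above 1) by log2 ratio of knockdown over control in bins of 0.1 for 12824 loci in each preparation, with lines at the ratios of KLF10, KLF11, ID1, ID2 and LTBP3. KLF10, which was chosen for its ratios, lies in the upper tail in all 3 panels. ID1, ID2 and LTBP3 each lie farthest out in a different panel.

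TGFB1 and TGFBR1, the ligand and its type I receptor, were the most abundant of the 10 genes in all 6 libraries, and were within 2-fold of control in each preparation. TGFB1 (chr19:41807491-41859816) had 29.6 FPKM in knockdown and 27.8 FPKM in control whole-cell RNA. Its nuclear level was 35.1 FPKM in knockdown and 37.3 FPKM in control cells. Its cytosolic level was 54.1 FPKM in knockdown and 52.9 FPKM in control cells. All 3 TGFB1 ratios (0.09, -0.09 and 0.03) lay inside the range of counting. The TGFB1 locus shares part of its span with HNRNPUL1, CCDC97 and a locus that includes BCKDHA, so some fragments could belong to those genes.

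TGFBR1 (chr9:101866319-101916474) was slightly higher in each knockdown library. It had 28.4 FPKM in knockdown and 23.3 FPKM in control whole-cell RNA. Nuclear RNA had 35.4 FPKM in knockdown and 32.2 FPKM in control cells, and its cytosolic level was 47.3 FPKM in knockdown and 44.0 FPKM in control cells. The ratios of 0.28, 0.14 and 0.11 were 4.88, 3.04 and 1.99 times their counting errors.

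LTBP3 (chr11:65306275-65326401), which binds latent TGF-beta and is needed for its secretion, was lower in each preparation. It had 5.38 FPKM in knockdown and 9.91 FPKM in control whole-cell RNA. Nuclear RNA had 5.67 FPKM in knockdown and 6.95 FPKM in control cells, and the cytosolic level was 3.45 FPKM in knockdown and 4.65 FPKM in control cells. The whole-cell ratio (-0.87) stood at -7.24 counting errors, the nuclear one (-0.29) at -2.64 and the cytosolic one (-0.42) at -2.22. Under quantile normalization the whole-cell ratio was -1.03, past 2-fold.

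Other ligands, binding proteins and receptors mostly stayed within 2-fold, as did most of all loci. Of 23 ligand genes, 7 loci averaged 1 FPKM or more and none passed 2-fold on the log2(FPKM + 0.1) scale. INHBE, an activin subunit, had 10.5 FPKM in knockdown and 6.34 FPKM in control cytosolic RNA (ratios 0.43, 0.16 and 0.71). TGFB3 had 1.63 FPKM in knockdown and 0.797 FPKM in control whole-cell RNA, which is 2.05-fold in FPKM. Its whole-cell ratio was 0.95 as analysed and 1.03 with a pseudocount of 0.01, and its nuclear and cytosolic ratios were -0.17 and -0.45. GDF11, a relative of myostatin, had 0.26, 0.24 and 0.16, and AMH, anti-Mullerian hormone in a locus merged with MIR4321, had 0.23, -0.71 and 0.93, the last of which is 2.01-fold in FPKM.

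None of the 6 measured loci for latency and activation passed 2-fold. LTBP4, a latent TGF-beta binding protein more abundant here than LTBP3, had 38.2 FPKM in knockdown and 33.6 FPKM in control whole-cell RNA (ratios 0.18, -0.18 and 0.28). LTBP1 had ratios of -0.02, -0.41 and 0.68. FURIN, the protease that cleaves the TGF-beta precursor, had 0.16, -0.21 and 0.14, and ITGAV, the integrin chain of receptors that release TGF-beta, -0.11, 0.24 and -0.01.

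Among 11 measured receptor loci, ACVRL1 in cytosolic RNA was past 2-fold on that scale and BMPR1A in whole-cell RNA lay just short of it. ACVRL1, a type I receptor known mainly from endothelium, had 2.41 FPKM in knockdown and 1.02 FPKM in control cytosolic RNA, from about 47.0 fragments in knockdown and 17.8 fragments in control cells (ratios 0.52, 0.06 and 1.17). The cytosolic ratio was 0.76 with a pseudocount of 1 and 0.68 under quantile normalization. BMPR1A, a BMP receptor, had 2.61 FPKM in knockdown and 1.27 FPKM in control whole-cell RNA, which is 2.06-fold in FPKM (ratios 0.99, -0.02 and -0.16). Its whole-cell ratio was 6.94 times its counting error, and was 1.04 with a pseudocount of 0.01 and 1.35 under quantile normalization, past 2-fold. ACVR2A, an activin receptor, had 2.72 FPKM in knockdown and 4.35 FPKM in control nuclear RNA (ratios 0.00249, -0.66 and -0.19). AMHR2, the receptor of anti-Mullerian hormone, had ratios of 0.13, 0.18 and 0.57.

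The SMADs that carry the signal stayed within 2-fold of control. None of the 5 measured loci passed 2-fold, and their medians were -0.05, -0.10 and -0.07, beside 0.06, 0.03 and 0.03 for all loci. SMAD3, which acts downstream of TGFBR1, had 12.9 FPKM in knockdown and 11.9 FPKM in control whole-cell RNA, and ratios of 0.12, -0.44 and -0.07. SMAD4, the shared partner, in a locus merged with ELAC1, had ratios of -0.05, -0.10 and -0.15. SMAD1 and SMAD5, of the BMP branch, had 0.03, 0.56 and 0.06, and -0.05, -0.41 and -0.12. The nuclear ratios of SMAD3 and SMAD5 stood at -4.42 and -5.91 counting errors. Those of SMAD1 and SMAD4, at 1.89 and -1.87, lay inside the range of counting. Of 8 measured positive modulators none passed 2-fold either, and RNF111 (Arkadia), a ubiquitin ligase that removes SKIL and SMAD7, had 11.9 FPKM in knockdown and 7.37 FPKM in control whole-cell RNA (ratios 0.69, 0.26 and 0.24). ZFYVE9 (SARA), which brings SMADs to the receptor, had ratios of 0.10, 0.50 and 0.07. USP4, a deubiquitinase in a locus merged with C3orf62, had 0.43, 0.12 and 0.000894, and ZFYVE16 0.21, 0.20 and 0.02.

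**Figure D4:**
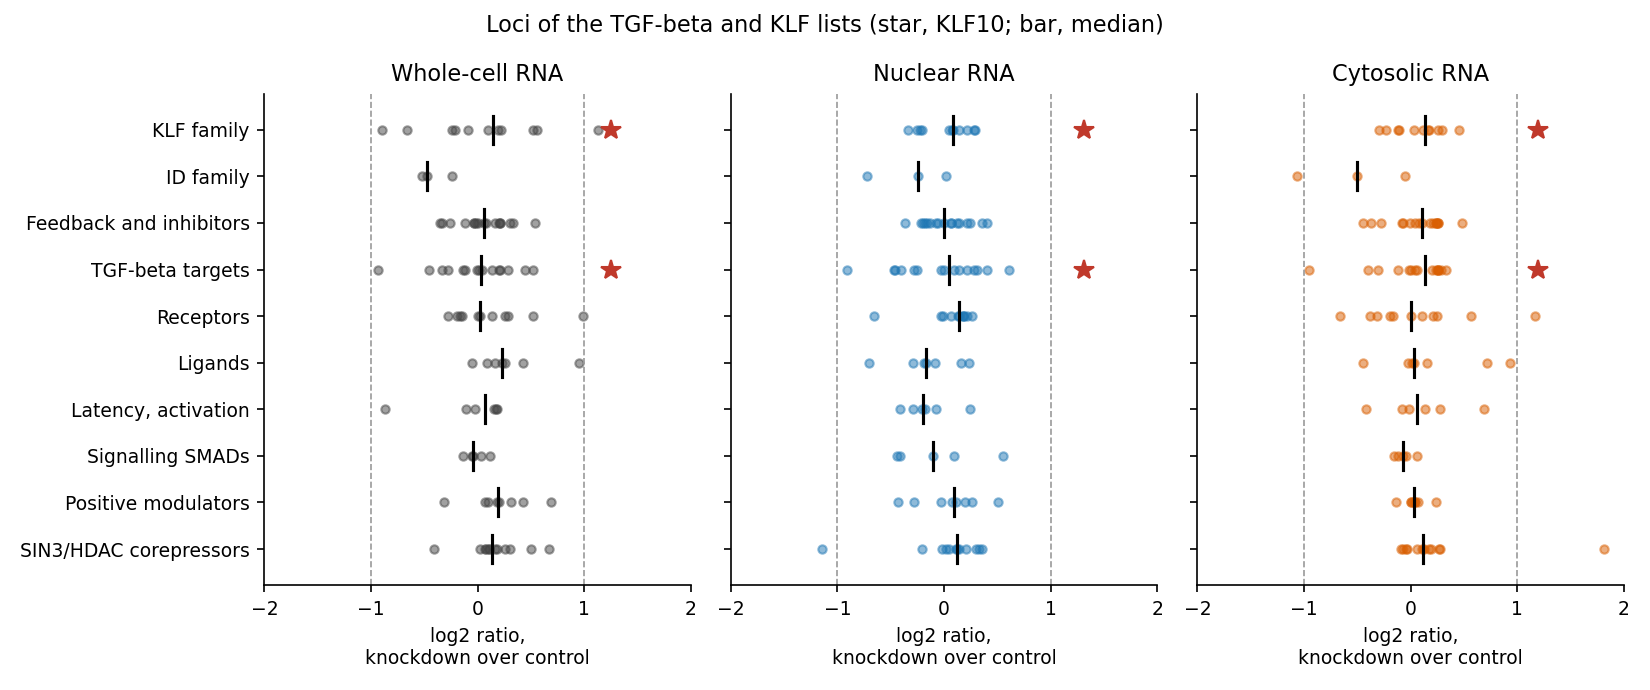
Log2 ratio of knockdown over control for each measured locus in the gene lists, by preparation. The list of ITCH, SIAH1 and SIAH2 is not drawn. Stars mark KLF10, short bars list medians and dashed lines 2-fold. KLF10, which was chosen for its ratios, lies above the rest of both lists that hold it in nuclear and cytosolic RNA. KLF13 lies near KLF10 (1.13) in whole-cell RNA.

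Genes known as TGF-beta targets lay on both sides of control. Of 16 measured loci, KLF10 alone was past 2-fold in any preparation on the log2(FPKM + 0.1) scale, and it was chosen for that. Of all loci, 1.04% to 2.62% were at least 2-fold higher and 1.29% to 2.63% lower in a single preparation. The medians of the 16 were 0.03, 0.05 and 0.13. There were 6 of the 16 higher by any size and 4 lower in all 3 preparations, where 24.6% of all loci were higher and 13.2% lower. KLF10 is included in these medians and among the 6. CDKN1A, the cyclin-dependent kinase inhibitor p21 through which TGF-beta slows the cell cycle, lay lower. It had 1.94 FPKM in knockdown and 3.78 FPKM in control whole-cell RNA (ratios -0.93, -0.91 and -0.31). Its nuclear level was 2.73 FPKM in knockdown and 5.21 FPKM in control cells, and its cytosolic level 6.61 FPKM in knockdown and 8.21 FPKM in control cells. Under quantile normalization the whole-cell ratio of CDKN1A was -1.18 and the nuclear one -1.03, both past 2-fold. ATF3, a stress-induced transcription factor, was higher (0.29, 0.61 and 0.29), and VDR, the vitamin D receptor, lower (-0.27, -0.29 and -0.40). CTGF and CDKN2B were listed at 0 in all 6 libraries.

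KLF10 and its relatives repress through the SIN3-HDAC complex, and 6 of the 12 measured corepressor loci were higher and 0 lower in all 3 preparations, beside 24.6% and 13.2% of all loci. CTBP2 alone of the 12 passed 2-fold, and SAP18, SAP30, RBBP4 and HDAC1 had ratios of 0.50, 0.67, 0.17 and 0.30 in whole-cell RNA. SAP18 and SAP30 are small SIN3 subunits, RBBP4 is a histone chaperone and HDAC1 a deacetylase. CTBP2, a corepressor singled out after its values were seen, had 2.00 FPKM in knockdown and 4.56 FPKM in control nuclear RNA. Its cytosolic level lay the other way, with 5.44 FPKM in knockdown and 1.47 FPKM in control cells. The nuclear ratio of CTBP2 (-1.15) was -0.89 with a pseudocount of 1. Of the 3 ubiquitin ligases on the remaining list, ITCH had 27.4 FPKM in knockdown and 13.6 FPKM in control whole-cell RNA, with ratios of 1.01, 0.64 and 0.23. The whole-cell ratio of ITCH was 0.94 to 0.99 under 4 of the 5 alternatives, short of 2-fold. ITCH and SIAH1 are reported to act on the KLF10 protein. SIAH2 had ratios of 0.84, 0.21 and -0.08, and SIAH1, in a merged locus, 0.11, -0.09 and -0.09.

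KLF10 held a different place in the order of levels after knockdown, which restates the contrast it was chosen on. After knockdown KLF10 was the 6th, below TGFB1, TGFBR1, TGIF1, SKIL and ID1 and above KLF11, LTBP3, ID2 and SMAD7, and TGFB1 was at 3.72 times its level. In control whole-cell RNA KLF10 was the lowest of the 10 genes, below TGFB1, TGFBR1, ID1, SKIL, TGIF1, LTBP3, ID2, SMAD7 and KLF11 in that order, and TGFB1 was at 8.45 times its level. Neighbours within 1.96 counting errors of each other were TGFB1 and TGFBR1, TGIF1 and SKIL, SKIL and ID1, and KLF11 and LTBP3 in knockdown whole-cell RNA. In control whole-cell RNA they were ID1 and SKIL, SKIL and TGIF1, SMAD7 and KLF11, and KLF11 and KLF10.

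Between nucleus and cytosol, ID1 and ID2 had larger shifts than KLF10. The ratio of nuclear to cytosolic FPKM of KLF10 was 0.587 in knockdown and 0.535 in control cells. Its localization shift, the log2 ratio in knockdown minus that in control cells, was 0.12 and lay inside the range of counting (0.851 times its error). KLF11 had the most cytosolic RNA of the 10 genes, with ratios of 0.360 in knockdown and 0.353 in control cells, and LTBP3 the most nuclear, with 1.65 in knockdown and 1.49 in control cells. For 8 of the 10 genes the shift was between -0.12 and 0.15.

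ID2 had a nuclear-to-cytosolic ratio of 1.37 in knockdown and 0.636 in control cells, a shift of 1.09 toward the nucleus that was 4.18 times its counting error. At least 2-fold shifted to the nucleus were 3.28% of all loci, and to the cytosol 3.83%. ID1 lay the other way, with ratios of 0.772 in knockdown and 1.23 in control cells, a shift of -0.67 that stood at -4.67 counting errors. The shift of ID2 came with a lower cytosolic level, and that of ID1 with a lower nuclear level. How nuclear and cytosolic libraries are scaled sets the absolute ratios, and for ID1 and ID2 the sign of the shift was the same under each scaling and pseudocount tried. The shift of ID2 was short of 2-fold with a pseudocount of 1 (0.95) and under quantile normalization (0.94).

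**Figure D5:**
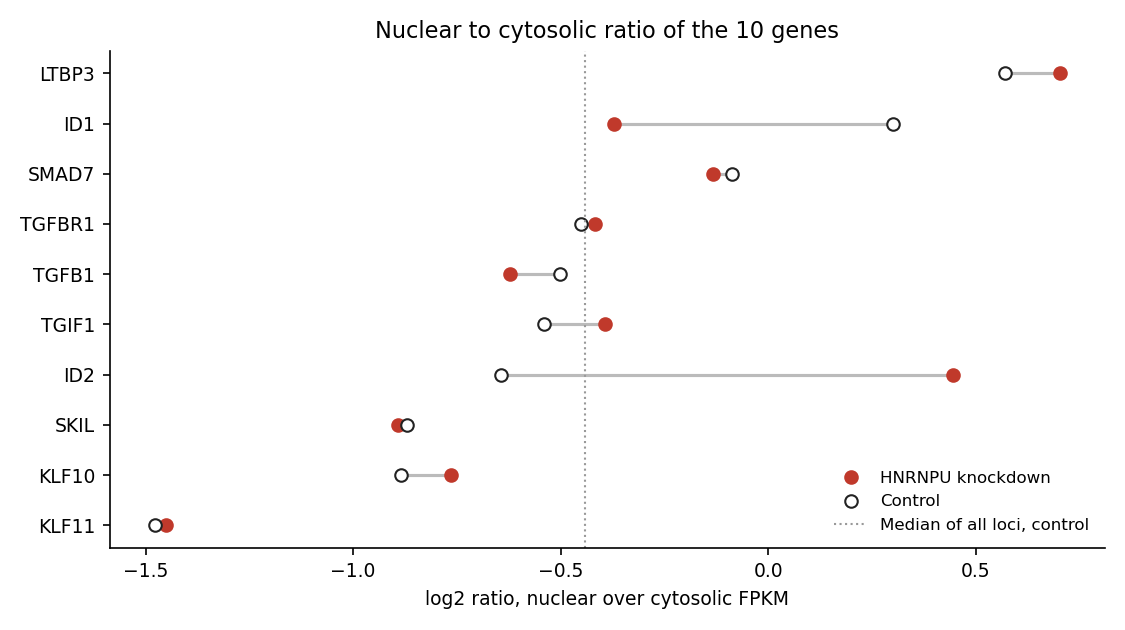
Log2 ratio of nuclear to cytosolic FPKM of the 10 genes, with filled points for the knockdown and open points for the control, and a dotted line at the control median of all loci (-0.44). The points of ID2 and ID1 are far apart in opposite directions (shifts of 1.09 and -0.67), and the points of the other 8 genes lie close together.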

How the data were processed

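Whole-cell, nuclear and cytosolic RNA of K562 cells was sequenced after ribosomal RNA depletion with strand-specific libraries, per the labels' protocols. The authors deposited FPKM values, 1 column per library. That unit is inferred from the numbers and the software, as the header is silent. TopHat2 2.0.13, Cuffdiff 2.2.1, CASAVA and FastQC are named in the submitters' processing notes, which list hg19 and mm9 without saying how each was used. Coordinates match hg19. How libraries were scaled, which annotation served and whether strand was used is not given in the sources cited.

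Loci on chromosome Y and XIST were left out. Loci averaging 1 FPKM or more across all 6 libraries were kept, and ratios are differences of log2(FPKM + 0.1), so changes of low loci are understated. With 1 library per group, differences are described by size (2-fold) beside the share of all loci of that size. A fit over the 3 preparations was not run. Depth came from the spacing of low FPKM values in 3863 single-exon loci, whose lengths were shortened by 220 bases. Each gene's fragments were then estimated with the average length of its protein-coding transcripts in GENCODE release 29. The counting error follows from them, covers counting only and rests on estimated lengths.

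All 10 members were always named. From each of 11 lists, up to 4 further genes were named, those whose mean of the 3 ratios was largest in absolute value. Ratios of opposite sign cancel in that mean. Loci like KLF10 were the 5 nearest over the 3 ratios among those averaging 5 FPKM or more. Some loci that this rule picks are not reported here. The members and lists were chosen with earlier results of these data known. Alternatives were another pseudocount, scaling, minimum or size rule, and loci with a single name. Python 3.11.15 with numpy 2.4.6, pandas 2.3.3 and matplotlib 3.10.9 was used, and the ratios were tested on simulated libraries.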

Additional observations from a re-analysis of the deposited data

Results flagged for a closer look

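ID2 and KLF13 were past 2-fold in 1 preparation while the ratio in another had the opposite sign. CTBP2 was past 2-fold on the lower side in nuclear RNA and on the higher side in cytosolic RNA. Other genes of the lists, such as AMH, TGFB3 and KLF7, had ratios of opposite sign at least 2-fold apart with neither past 2-fold. The difference between preparations was not tested, since each rests on 1 library per group. ID2 had log2 ratios of 0.02 in nuclear and -1.07 in cytosolic RNA, which are 1.09 apart. The nuclear ratio of ID2 lay inside the range of counting and was below 0 under 1 of 5 alternatives, so it gives no direction of its own. KLF13 had 1.13 in whole-cell and -0.23 in nuclear RNA, 1.36 apart. CTBP2 had -0.41 in whole-cell and -1.15 in nuclear RNA against 1.82 in cytosolic RNA, which gives differences of -2.23 and -2.97.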

How the results depend on the processing

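Of 200 values of the 10 genes (3 ratios and the shift of each, under 5 alternatives of pseudocount and scaling), 199 moved by less than 1.96 counting errors and 193 kept their sign. The other 7 belong to the nuclear ratio of ID2, the cytosolic ratio of TGFB1 and the shifts of KLF11, SKIL and TGFBR1, all near 0. KLF10 stayed past 2-fold in each preparation under all 5: its ratio ran from 1.06 to 1.36 in whole-cell, 1.14 to 1.45 in nuclear and 1.02 to 1.21 in cytosolic RNA. KLF10 was chosen on these same values, so the ranges describe rescaling only and lend the choice no support. With quantile normalization the shift of KLF10 was 0.42. With that normalization LTBP3 was past 2-fold lower in whole-cell RNA, so 1 gene was counted there, and ID2 in cytosolic RNA was not, so 0 were. With a pseudocount of 1 the cytosolic count was also 0. With a 1.5-fold rule 1 gene was lower in whole-cell and 1 in nuclear RNA. The cause was not tested. Over all loci, 175 were at least 2-fold higher in whole-cell RNA, against 73 with a pseudocount of 1, 269 with quantile normalization, 1894 with no minimum, 28 with a minimum mean of 5 FPKM and 611 with the 1.5-fold rule. All other counts over loci in single preparations also moved by more than 1.5 times under these 5. The labels give no replicate numbers to pair, and a fit with preparation as a block was not run. No replicate could be left out, since each group holds 1 library. Depth limits low genes: the control cytosolic values of ACVRL1 and AMH rest on about 17.8 and 19.0 fragments.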
